A study of Mus musculus with 6 samples.

Results

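The transcripts described here are those of the neurotrophins Bdnf and Ntf3, of the Trk receptors Ntrk2 and Ntrk3, of the receptor Ngfr, and of Frs2, Frs3 and Ngfrap1, whose products bind these receptors. They were found by gene symbol among the probes of the array, which gave 8 of its 34797 gene names, with 13 of the 55681 probes. Ntrk2 had 3 probes, Ntrk3 had 4 and each other gene had 1, and the probes of Ntrk2 (kinase form) and Ngfr were each printed as 10 spots. Cerebellar RNA of C57BL/6J pups at postnatal day 1 was hybridized to 6 one-colour arrays. The dams ate a custom AIN-93G amino acid diet with folic acid (FA) at 2 mg/kg (control) or 20 mg/kg, starting a week before mating and lasting through pregnancy. Each sex had 1 array at 2 mg and 2 arrays at 20 mg, and each array held RNA pooled from 3 pups of different dams. The 20 mg extraction was repeated on a further batch of pups, and the labels do not say which array holds it. The pool is therefore the unit of replication, and the spread within a dose is known at 20 mg alone.

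Neurotrophins are small secreted proteins that are cleaved from longer precursors. BDNF binds the tyrosine kinase receptor TrkB, the product of Ntrk2, and NT-3 binds TrkC, the product of Ntrk3. Ligand binding brings receptors together, and a phosphorylated tyrosine between the membrane and the kinase domain then recruits adaptors such as Shc, FRS2 and FRS3, and a tyrosine of the tail recruits phospholipase C gamma. These open the Ras-MAP kinase, PI3 kinase and calcium branches. Ntrk2 and Ntrk3 also give truncated receptors that keep the ligand-binding part and lack the kinase. The p75 receptor, the product of Ngfr, binds all neurotrophins and, with more affinity, their precursors. In the developing cerebellum BDNF acts on granule cells, NT-3 on granule cells and Purkinje cells, and p75 is high in proliferating granule cell precursors.

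Since Ntrk2 and Ntrk3 each give a kinase receptor and a truncated receptor, what a probe measures depends on where it lies. The 4 receptor probes with coding sequence are shown first, 5′ to 3′ on the strand of the transcript, together with that of Ngfrap1, whose coding probe carries a repeat. Positions are those of mm9, as the array design gives them.
Ntrk2, kinase and truncated forms, A_55_P2006792: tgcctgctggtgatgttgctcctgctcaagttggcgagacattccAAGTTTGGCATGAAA
Ntrk3, kinase form (5′ probe), A_55_P2056533: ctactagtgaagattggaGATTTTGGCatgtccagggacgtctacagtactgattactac
Ntrk3, kinase form (3′ probe), A_66_P118329: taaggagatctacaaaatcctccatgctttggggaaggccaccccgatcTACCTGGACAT
Ntrk3, truncated form (5′ probe), A_55_P2006808: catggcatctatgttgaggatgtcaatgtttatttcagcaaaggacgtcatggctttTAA
Ngfrap1, A_55_P2149615: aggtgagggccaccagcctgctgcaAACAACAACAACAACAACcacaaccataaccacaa
The Ntrk2 probe (chr13:58979563-58979622, plus strand) spans the membrane segment, and its capitals mark the last codons before the kinase and truncated forms diverge. The array design gives its accession for the kinase form, and that it reads both forms is inferred from this place. In the first Ntrk3 probe (chr7:85392044-85392103, minus strand) the capitals mark the codons of the DFG motif of the kinase. In the second (chr7:85337455-85337514, minus strand) they mark the codons around the tyrosine that docks phospholipase C gamma, close to the end of the protein. In the truncated form (chr7:85447515-85447574, minus strand) they mark the stop codon, which follows a tail that the kinase form lacks. In Ngfrap1 (chrX:132805907-132805966, plus strand) the 18 capitals mark a run of AAC, the codon of asparagine. The other 8 probes are given by position, with no letters. They lie at chr13:59230936-59230995 (Ntrk2, kinase form), chr13:59038046-59038105 (Ntrk2, truncated form), chr7:85445908-85445967 (Ntrk3, truncated form, 3′ probe), chr2:109566961-109567020 (Bdnf), chr6:126051431-126051490 (Ntf3), chr11:95430211-95430270 (Ngfr), chr10:116507186-116507245 (Frs2) and chr17:47841145-47841204 (Frs3). All 13 accessions were found in the RefSeq table, where Ngfrap1 is named Bex3.

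The array labelled female 20 mg replicate 2, named the dim array below, stood apart from the rest. Its median processed signal was 5.14, against 39.0 to 162 on the other arrays, 23.3% of its probes were well above background against 51.1% to 71.9%, and its mean Spearman correlation with the other arrays was 0.658 against 0.861 to 0.889. Xist, made in female cells, had a processed signal of 8.18 there and was not well above background, against 1833 and 7935 on the other female arrays. Eif2s3y, carried by the Y chromosome, was well above background at 48.7 on that array and at 46.5 on female 20 mg replicate 1, and gave 5.98 on the female 2 mg array and 886 to 9236 on the male arrays. Ddx3y, also carried by the Y chromosome, was not well above background on the female arrays, with 10.1 on the dim array and 6.71 and 6.01 on the others, against 428 to 3645 on the male arrays. Fold rule counts of the members are given with and without the dim array. The standard errors and member p-values of limma, the fold rule calls of lists and markers, and the profile likenesses below use it. A field of the labels names the tissue as whole brain, where the titles name cerebellum. Cerebellar markers were well above background for 13 of 13 genes on 4 arrays, for 12 on male 20 mg replicate 2 and for 6 on the dim array. Forebrain markers were so for 10, 10 and 1 of 10 genes on the female arrays and for 9, 10 and 5 on the male arrays, each time in the order 2 mg, 20 mg replicate 1 and 20 mg replicate 2.

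All 13 probes were well above background on 4 arrays, the exceptions being male 20 mg replicate 1 with 12 and the dim array with 6. Of 34413 probes well above background on both 2 mg arrays, 80.7% were so on the first of these and 36.9% on the second. No member probe was saturated. The levels below are log2 of the processed signal after quantile normalization over the 6 arrays with a floor of 10, which is 3.32 on this scale, and since probes differ in how they bind, levels are compared between arrays and never between probes.

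**Figure D1:**
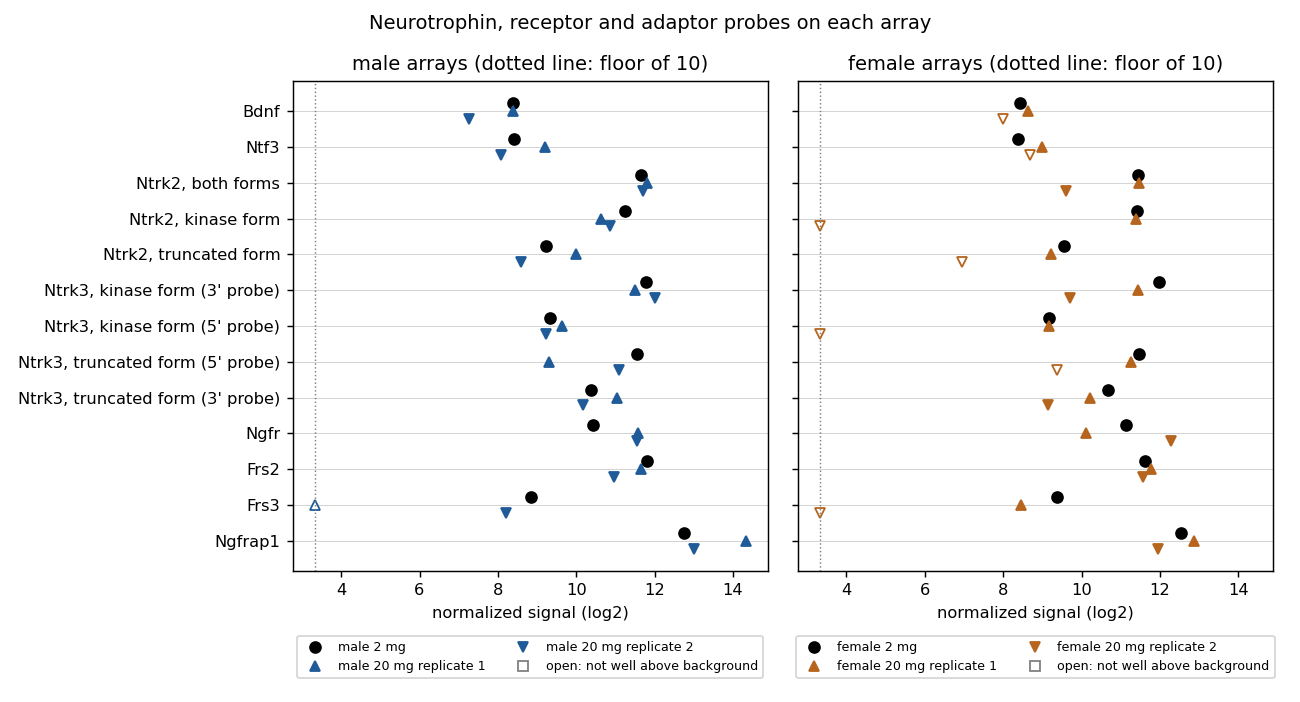
Normalized signal (log2, horizontal axis) of the 13 probes on the male arrays (left) and the female arrays (right), with circles for the 2 mg array, triangles for the 20 mg arrays and open symbols where a probe was not well above background. Frs3 lies at the floor of 3.32 on male 20 mg replicate 1, and 3 probes (Ntrk2 kinase form, Ntrk3 kinase form 5′ probe and Frs3) lie there on the dim array, plotted under its label, female 20 mg replicate 2.

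The question put to these arrays was whether maternal FA at 20 mg/kg altered transcripts of the neonatal cerebellum in either sex. By the fold rule, a difference of at least 2.5-fold between the mean of the 20 mg arrays and the 2 mg array, among probes whose variance over the arrays passed a filter, 1 of the 13 probes was lower in males and 3 were lower in females, and 0 were higher in either sex. Over the 37247 probes tested, 2.97% were lower and 1.71% higher in males by this rule, and 15.3% were lower and 5.42% higher in females. In males the probe was that of Frs3. In females they were Frs3, the Ntrk2 kinase form and the 5′ probe of the Ntrk3 kinase form, and without the dim array the count was 0 of 13. Without male 20 mg replicate 1 the count in males was also 0 of 13. None of the 13 probes was past 2.5-fold on both 20 mg arrays of a sex, which 1.36% of all tested probes were in males and 1.64% in females on the lower side, and 0.422% and 0.58% on the higher side.

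The limma fit, with 4 groups of sex and dose and p adjusted by Benjamini-Hochberg over all 37247 probes, called 0 member probes in either sex, and 0% of all probes. At an unadjusted p under 0.05 it called 74 probes in males and 161 in females, of which 0 were members. The smallest unadjusted p among the members was 0.234 in males (Frs3) and 0.0556 in females (Ntrk2 kinase form), each with an adjusted p of 1 from limma. The standard error of a member's dose difference ran from 0.99 to 2.52 on the log2 scale. In 8 of 13 probes in males and 10 of 13 in females, the SD between the 20 mg pools was larger than the dose difference itself. These p-values rest on the spread between the 20 mg arrays, pooled over both sexes, so the dim array enters those of males too. The 20 mg arrays of a sex also differed in slide and scan day, so that spread is not of pools alone. The lone 2 mg array of each sex was assumed to vary like the 20 mg arrays.

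Both 20 mg arrays lay below the 2 mg array for 4 of 13 probes in males, where 23.5% of all tested probes did so, and for 6 of 13 in females, where 28% did so. Both lay above it for 3 probes in males (20.4% of all) and 1 in females (21.2% of all), the latter by a value of the dim array that was not well above background. The median dose difference of the 13 probes, on the log2 scale, was 0.15 on male 20 mg replicate 1, -0.34 on male 20 mg replicate 2 and -0.02 on female 20 mg replicate 1, beside 0.09, -0.16 and 0.03 over all tested probes. On the dim array it was -1.82, beside -0.48 over all tested probes. There 8 of 13 member probes were past 2.5-fold on the lower side, as were 34.3% of all tested probes, and 5 of the 8 were so by a level well above background or by a bound, while on female 20 mg replicate 1 the count was 0 of 13, with 3.07% of all. On the higher side the counts on these arrays were 0 of 13, with 18.5% and 1.95% of all. On male 20 mg replicate 1, 2 of 13 were past 2.5-fold lower (13% of all) and 1 was past it higher (6.28% of all), and on male 20 mg replicate 2 it was 0 in either direction (8.25% of all lower and 10% higher).

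**Figure D2:**
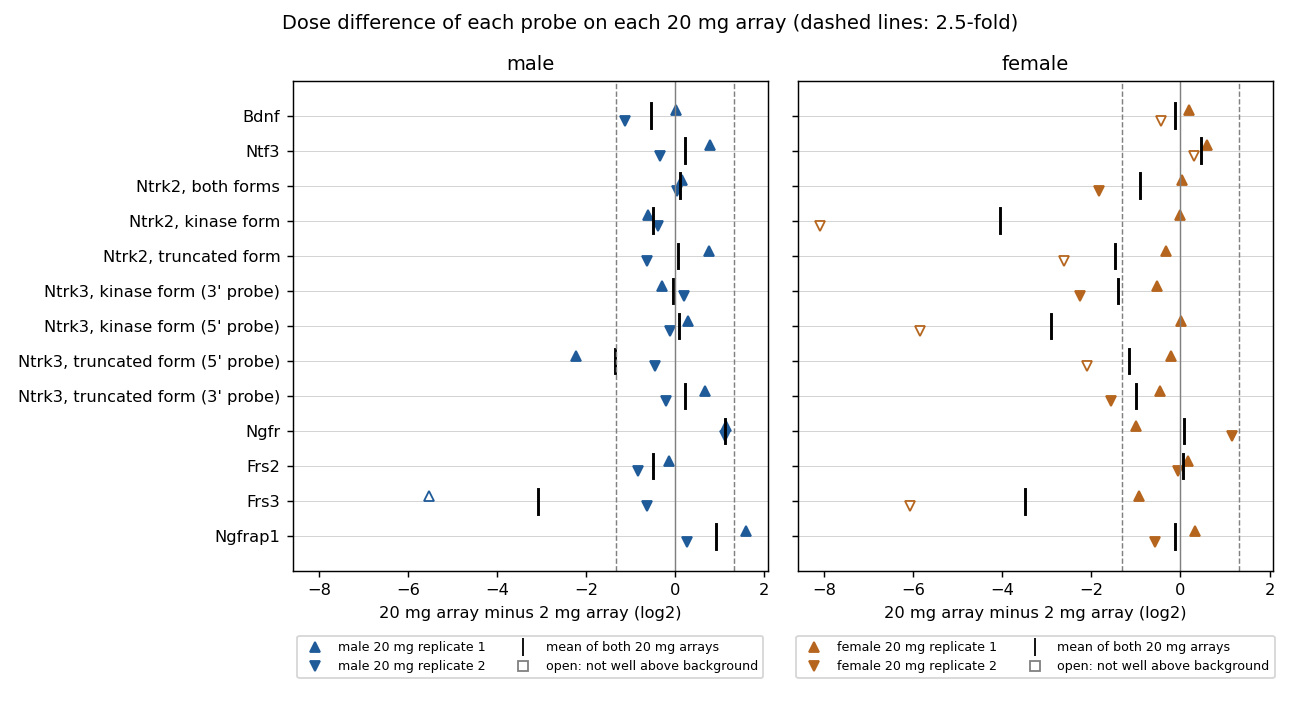
Dose difference (20 mg array minus the 2 mg array of the same sex, log2, horizontal axis) of each probe in males (left) and females (right), with a triangle for each 20 mg array, a bar for their mean, dashed lines at 2.5-fold and open symbols where the 20 mg array was not well above background. The points of female 20 mg replicate 1 lie between -1.0 and 0.60, and those of the dim array between -8.10 and 1.16.

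Of the ligands, Bdnf, the ligand of TrkB, had a normalized level (log2) of 8.38 on the male 2 mg array and 8.39 and 7.26 on the male 20 mg arrays (replicates 1 and 2, an order kept below). On the female arrays the levels of Bdnf were 8.44 at 2 mg and 8.64 and 7.99 at 20 mg, the last not well above background. The first 20 mg pool was thus close to the 2 mg pool in both sexes, and the second was below it in males. In females the place of the second is not known, since the lowest level well above background on the dim array was 8.82. The mean dose difference was -0.55 (SE 1.80) in males and -0.12 (SE 1.80) in females on the log2 scale. Ntf3, which encodes NT-3, stood at 8.42 at 2 mg and 9.20 and 8.08 at 20 mg in males. In females the levels of Ntf3 were 8.38 at 2 mg and 8.98 and 8.68 at 20 mg, the last not well above background. Ntf3 was 0.60 higher than at 2 mg on female 20 mg replicate 1, its place on the dim array is not known for the same reason, and its female difference of 0.45 (SE 1.64) had an adjusted p of 1 in limma.

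Ntrk2 gave its steadiest values on the probe in the membrane segment. Its levels were 11.66 at 2 mg and 11.81 and 11.71 at 20 mg in males, a range of 0.15, and 11.43 and 11.46 on the female 2 mg and first 20 mg arrays. On the dim array it was 9.61, still well above background and 1.82 below the 2 mg array. The dose difference of this probe was 0.10 (SE 1.12) in males and -0.90 (SE 1.12) in females.

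The probe of the Ntrk2 kinase form, TrkB with its signalling domain, read 11.24 at 2 mg and 10.62 and 10.86 at 20 mg in males, so that both 20 mg pools were lower, by 0.62 and 0.38. In females it read 11.42 at 2 mg and 11.40 on the first 20 mg array. On the dim array it was at the floor, with a processed signal of 4.23 over its 10 spots and not well above background. Only a bound can be given there. Set against the lowest level well above background on that array, it is 6.07-fold lower than at 2 mg. This array set the female difference of -4.06 (SE 2.00, limma adjusted p = 1), and on female 20 mg replicate 1 the difference was -0.02. Female and male differences of this probe were 3.56 apart (female minus male -3.56, SE 2.83, limma adjusted p = 1). With female 20 mg replicate 1 left out in place of it, the difference was -7.69 with a limma adjusted p of 0.0237, the only limma call of a member in the alternatives run, and it then rested on the dim array and a spread taken from the male pools.

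The probe of the truncated Ntrk2 form, which binds ligand without a kinase, stood at 9.23 at 2 mg and 10.00 and 8.59 at 20 mg in males, on either side of the 2 mg pool. In females it read 9.55 at 2 mg and 9.23 and 6.94 at 20 mg, the last not well above background. Its dose difference was 0.06 (SE 1.61) in males and -1.46 (SE 1.61) in females.

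Since 2 probes of a gene on the same array share its RNA and its labelling, their ratio of processed signals needs no scaling between arrays, and its change from array to array can be read. The signal of the Ntrk2 kinase probe over the truncated probe, on the log2 scale, was 1.95 on the male 2 mg array, 0.59 on male 20 mg replicate 1 and 1.98 on male 20 mg replicate 2. In females it was 1.84 at 2 mg and 2.16 on 20 mg replicate 1, and on the dim array neither probe was well above background. Over 4 of the 5 arrays where both probes were measured the ratio spanned 0.32, and male 20 mg replicate 1 lay 1.25 below the lowest of them. In males it was below the 2 mg array on 20 mg replicate 1 and not on replicate 2. In females it could be read on 20 mg replicate 1 alone, so the female 20 mg pools cannot be compared.

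Ntrk3 had 4 probes, 2 of them on each form. The 3′ probe of the kinase form, the brightest, read 11.79 at 2 mg and 11.49 and 12 at 20 mg in males, and 11.98 at 2 mg and 11.45 and 9.71 at 20 mg in females. All 6 values were well above background, and both female 20 mg arrays lay below the female 2 mg array, by 0.53 and 2.26, for a difference of -1.40 (SE 1.11, limma adjusted p = 1). In males the difference was -0.04 (SE 1.11). The 5′ probe of the kinase form, over the DFG codons, read 9.34 at 2 mg and 9.64 and 9.21 at 20 mg in males, and 9.16 at 2 mg and 9.17 on the first 20 mg array in females. On the dim array it was at the floor and not well above background. Its bound there, 1.27-fold lower, is set against the lowest level well above background. The 5′ probe of the truncated form, at 9.38 on that array, was not well above background either. Since 9.38 exceeds the 2 mg level of 9.16, no decrease can be read from the dim array. The female difference of -2.91 (SE 2.06) from the fold rule rests on that array, and without it the difference was 0.01.

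The probes of the truncated Ntrk3 form did not move together on every array. Its 3′ probe read 10.38 at 2 mg and 11.04 and 10.17 at 20 mg in males, and 10.68 at 2 mg and 10.21 and 9.13 at 20 mg in females. Its 5′ probe, over the stop codon and 1607 bases away, read 11.54 at 2 mg and 9.30 and 11.08 at 20 mg in males, and 11.48 at 2 mg and 11.27 and 9.38 at 20 mg in females, the last not well above background. On male 20 mg replicate 1 the 3′ probe was thus 0.66 higher and the 5′ probe 2.23 lower than on the 2 mg array, although both are given as the same transcript in the array design. The male dose difference of the 5′ probe, -1.35 (SE 1.25, limma adjusted p = 1), amounted to 2.54-fold, but the probe did not pass the variation filter, as was the case in females for the 3′ probe of the Ntrk3 kinase form (2.63-fold lower).

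The ratio of the 5′ to the 3′ probe of the truncated Ntrk3 form, as log2 of processed signals, was 1.12 on the male 2 mg array, -1.71 on male 20 mg replicate 1 and 0.81 on male 20 mg replicate 2. It was 0.76 and 1.03 on the female 2 mg and first 20 mg arrays. Male 20 mg replicate 1 thus differed from each of the other 4 by 2.47 or more on this scale, and those 4 spanned 0.36. The kinase form's 5′ over 3′ ratio ran from -2.79 to -1.79 on the same 5 arrays, highest on male 20 mg replicate 1. The kinase over truncated ratio of the 3′ probes was 1.37, 0.42 and 1.68 on the male arrays and 1.26, 1.19 and 0.63 on the female arrays, in the order 2 mg, 20 mg replicate 1 and 20 mg replicate 2. It was lowest on the arrays of the earlier scan day, male 20 mg replicate 1 and the dim array, which also shared a slide. With the 5′ probe of the truncated form in place of its 3′ probe, male 20 mg replicate 1 was highest instead, at 2.13 against 0.16 to 0.86 on the other arrays where both were well above background. Whether slide, scan or RNA sets these ratios cannot be told apart on these arrays.

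**Figure D3:**
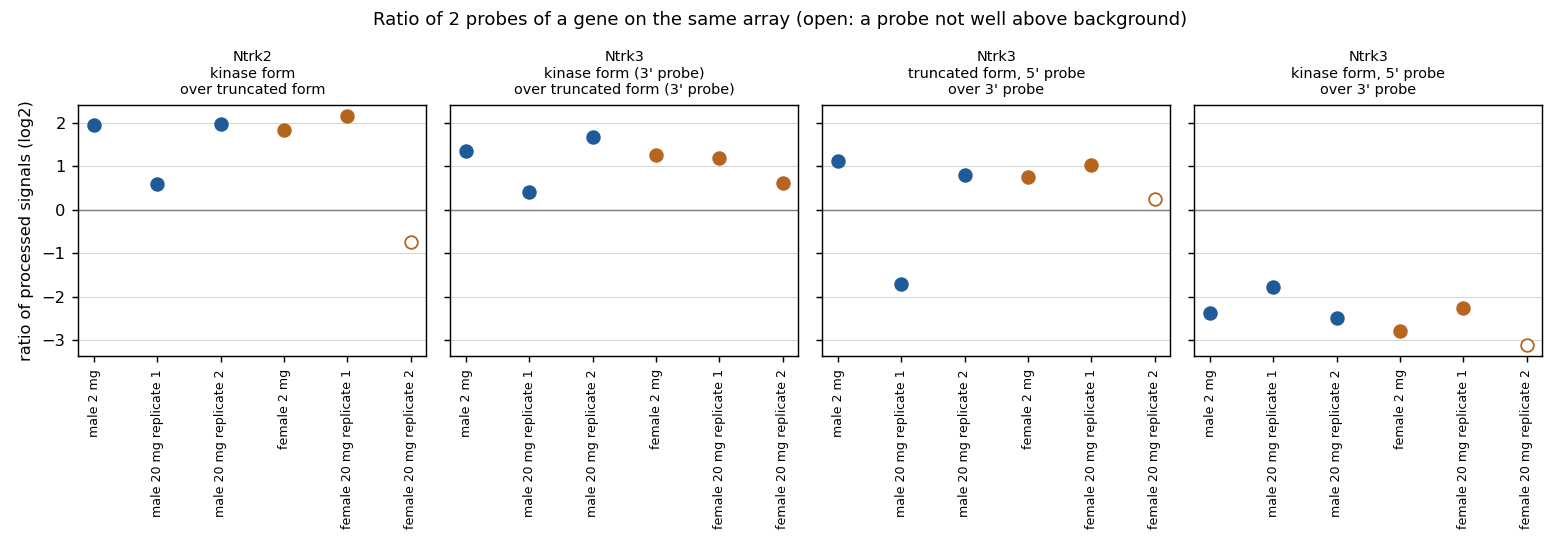
Ratio of processed signals (log2, vertical axis) of 2 probes of a gene on the same array, for each of the 6 arrays, with open circles where a probe was not well above background. In 3 of the panels male 20 mg replicate 1 lies below the other male arrays, with 0.59 for Ntrk2, 0.42 for the 3′ probes of Ntrk3 and -1.71 for the truncated Ntrk3 form, and in the panel of the Ntrk3 kinase form it lies highest at -1.79.

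Ngfr, which encodes p75, was the member whose 2 male 20 mg pools were most alike. Its normalized levels were 10.43 at 2 mg and 11.57 and 11.54 at 20 mg in males, so both 20 mg pools lay above the 2 mg pool by 1.14 and 1.11. The mean difference of 1.12, or 2.18-fold, exceeded the SD of 0.02 between the male 20 mg pools, yet it was under the 2.5-fold rule. In limma it had an SE of 1.15 and an adjusted p of 1. That error is pooled over both sexes and drawn toward that of probes of like brightness. Between the female 20 mg arrays, which include the dim array, the SD of Ngfr was 1.53. In females the levels of Ngfr were 11.13 at 2 mg and 10.13 and 12.29 at 20 mg, on either side of the 2 mg pool by -1.0 and 1.16. The female minus male difference was -1.04 (SE 1.63, limma adjusted p = 1). The 10 spots of this probe varied with a CV of 2.92% to 4.86% on the male arrays and 8.67% on the dim array, which covers error within an array and not between pools. Over 12 alternatives of processing the male difference of Ngfr stayed between 0.57 and 1.15. The Ngfr probe has 51.7% G and C, and probes with over 50% and up to 55% had a median difference of 0.05 on male 20 mg replicate 1 and 0.55 on male 20 mg replicate 2. The part of probe composition in the Ngfr difference was not tested.

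Ngfrap1, which encodes a small protein that binds the intracellular death domain of p75, read 12.74 at 2 mg and 14.33 and 13.00 at 20 mg in males. Both male 20 mg pools were higher, by 1.59 and 0.25, and the mean difference was 0.92 (SE 0.99, limma adjusted p = 1), less than the SD of 0.94 between them. In females the levels of Ngfrap1 were 12.53 at 2 mg and 12.86 and 11.95 at 20 mg, with a difference of -0.12 (SE 0.99). It was well above background on all 6 arrays.

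Of the adaptors, Frs2, the adaptor shared by FGF and Trk receptors, read 11.80 at 2 mg and 11.65 and 10.96 at 20 mg in males, and 11.61 at 2 mg and 11.77 and 11.56 at 20 mg in females. It was well above background on all 6 arrays, including the dim one, and its difference was -0.49 (SE 1.05) in males and 0.06 (SE 1.05) in females. The female pools spanned 0.21, the narrowest range of any member in that sex.

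Frs3, the neuronal relative of Frs2, was the only member past the fold rule on the lower side in both sexes, as were 1.48% of all tested probes. It was also among the 3 of 13 probes below the 2 mg array of their sex on all 4 arrays at 20 mg, where 6.68% of all tested probes were, the others being the Ntrk2 kinase probe and the 5′ probe of the truncated Ntrk3 form, while 0 of 13 lay above it on all 4 (5.12% of all). Its normalized levels were 8.84 at 2 mg and 3.32 and 8.20 at 20 mg in males, and 9.39 at 2 mg and 8.45 and 3.32 at 20 mg in females. The values of 3.32 are the floor, where the processed signals were 6.87 on male 20 mg replicate 1 and 3.99 on the dim array, neither well above background, against 1210 and 1505 on the 2 mg arrays. Set against the lowest level well above background on each array, Frs3 was at least 11.1-fold lower in that male pool. For that female pool this bound was 1.48-fold. Another member probe at 9.38 on the dim array was not well above background. The female 2 mg level of Frs3, 9.39, is so close to it that no decrease can be read there. On the 20 mg arrays where Frs3 was well above background it was lower by 0.64 in males and 0.93 in females, or 1.56-fold and 1.91-fold. The mean differences were -3.08 (SE 2.52) in males and -3.50 (SE 2.52) in females, with an adjusted p of 1 in limma and an SD between the 20 mg pools of 3.45 and 3.63. Over both sexes the difference was -3.29 (SE 1.78, limma adjusted p = 1). Without male 20 mg replicate 1 the male difference was -0.63, and without the dim array the female difference was -0.94, neither past the fold rule.

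The Frs3 probe differs from the rest of the set in composition. Of its 60 bases 35 are T and 16 are A, which leaves 15% G and C, where the other members' probes have 35% to 51.7%. Only 27 of all 55681 probes (0.0485%) have 15% or less, and the median is 43.3%. Probes with 20% or less, 55 of those well above background on both 2 mg arrays, had a median dose difference of -2.22 on male 20 mg replicate 1, -1.42 on male 20 mg replicate 2, 0.14 on female 20 mg replicate 1 and -2.41 on the dim array. In probes with over 40% and up to 45%, the medians were 0.18, -0.07, 0.00 and -0.67. Frs3 itself, at -5.52, -0.64, -0.93 and -6.06 in the same order of arrays, was at the floor on those with the lowest medians. On female 20 mg replicate 1, where probes with 20% or less had quartiles of -0.18 and 0.45, Frs3 was lower than the lower quartile. On male 20 mg replicate 2, where they had quartiles of -1.70 and -0.95, it was higher than the upper quartile. The part of base composition in the Frs3 difference was not tested.

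On male 20 mg replicate 2, the 9 member probes with under 50% G and C were all lower than on the 2 mg array, and the 4 with 50% or more were all higher. Over all probes well above background at 2 mg, 66.3% of those with under 50% were lower on that array and 21.9% of those with 50% or more. On male 20 mg replicate 1, 4 of the 9 probes and 1 of the 4 were lower, beside 45.3% and 51.3% of all probes. The part of composition in these directions was not tested. Between the 2 mg arrays, female minus male, the medians of all composition classes lay between -0.03 and 0.13.

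**Figure D4:**
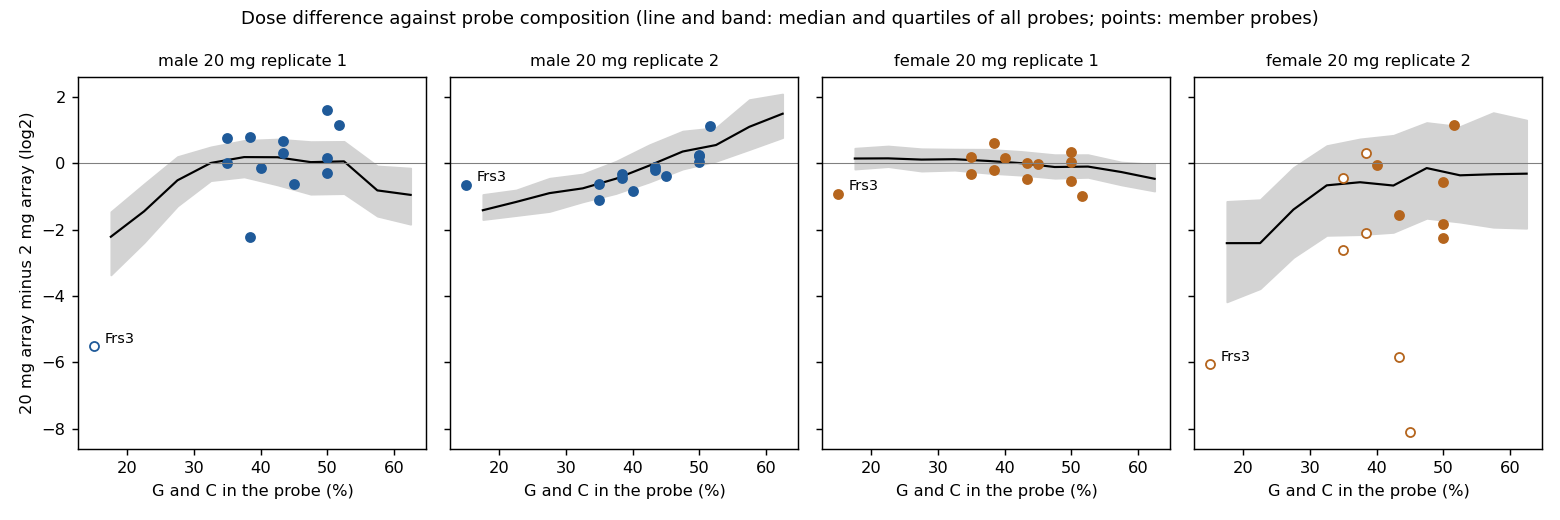
Dose difference (log2, vertical axis) against the share of G and C in the probe (percent, horizontal axis) on each 20 mg array, with the line and band for the median and quartiles of all probes well above background on both 2 mg arrays (the end classes, up to 20% and over 60%, are drawn beside their limits), coloured points for the 13 member probes and open points where a probe was not well above background. Frs3, at 15%, lies at -5.52, -0.64, -0.93 and -6.06, and on male 20 mg replicate 2 the 4 member probes at 50% or more lie above 0 and the other 9 below.

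Batches cut across these differences. Both 2 mg arrays shared a slide with female 20 mg replicate 1, male 20 mg replicate 1 shared another slide and an earlier scan day with the dim array, and male 20 mg replicate 2 lay on a slide of its own. Within the later scan day, normalized alone, the dose difference was -0.64 in males and -0.91 in females for Frs3, 1.06 and -0.96 for Ngfr, and -0.36 and -0.02 for the Ntrk2 kinase form. None of the 13 probes was past the fold rule within that day in either sex. With scan day as a block the difference of Frs3 over both sexes was -0.79 in place of -3.29, and that of the Ntrk2 kinase form in males was 1.58 (SE 2.12) in place of -0.50. The day term was shared by both sexes, so this male value also depends on the dim array, where the kinase probe was at the floor. With slide as a block and sex as a further term, the dose difference was 1.85 (SE 1.27) in place of -2.28 for the Ntrk2 kinase form. For Ngfr it was -1.01 (SE 1.02) in place of 0.60, each with a limma adjusted p of 1. Only the slide of the 2 mg arrays held both doses, and its 20 mg array was female, so this fit has no dose contrast within males. Its sex term also drew on the dim array. Within the slide of the 2 mg arrays, female 20 mg replicate 1 differed from the 2 mg array by -0.95 for Frs3 and -0.98 for Ngfr and by no more than 0.62 for any other member. In males no slide held both doses, so slide and dose cannot be told apart.

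The wider pathway was read from 7 lists of 88 genes, of which 87 were on the array and 83 were tested, each by its brightest probe. By the fold rule 1 gene was lower and 0 were higher in males, and 15 were lower and 0 were higher in females. These are 1.2% and 18.1% of the tested genes on the lower side, beside 2.97% and 15.3% of all tested probes. On female 20 mg replicate 1 alone, 1 gene was past 2.5-fold lower and 2 were past it higher, beside 3.07% and 1.95% of all. The limma fit called 0 in either sex, with 0 at an unadjusted p under 0.05. The male gene was Lingo1, a partner of p75 and the Nogo receptor, named here after its value was seen. It was lower by 5.56 on male 20 mg replicate 1, without a signal well above background there, and by 1.06 on male 20 mg replicate 2, and its probe has 18.3% G and C. The female calls were 2 of 5 tested genes among other ligands and receptors, 3 of 20 Trk adaptors, 3 of 23 genes of the kinase cascades, 6 of 17 p75 partners and 1 of 5 transcripts induced by Trk signalling. There were none among 7 tested genes of precursor processing or 6 other receptors that use Frs2 or Frs3. The gene past 2.5-fold lower on female 20 mg replicate 1 was Fos, an immediate early gene, which read 8.34 at 2 mg and 6.94 there. On the dim array Fos was not well above background, and since the lowest level that was so exceeds 8.34, no decrease can be read from it.

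The kinase cascades, Ras to Erk and Akt, had a median dose difference of 0.46 and 0.08 on the male 20 mg arrays and of 0.01 and -0.41 on the female ones, with all 23 genes well above background on every array except the dim array, where 13 were. Trk adaptors such as the Shc and Gab proteins had medians of 0.09 and -0.23 in males and 0.15 and -0.59 in females. The p75 partners had medians of 0.19 and -0.45 in males and 0.12 and -1.19 in females. Transcripts induced by Trk signalling had medians of -0.34 and -0.51 in males and -0.54 and -0.25 in females. The last is from the dim array, where 2 of these 5 genes were well above background and the median of all tested probes was -0.48. None of these lists held a limma call. The medians of all tested probes stand beside those of the members above.

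Among the other ligands and receptors, Sort1, which encodes sortilin, the partner of p75 in binding precursors, read 11.44 at 2 mg and 10.42 and 10.27 at 20 mg in males, so both pools were lower, by 1.01 and 1.16, with a difference of -1.09 and an adjusted p of 1 in limma. Its probe has 26.7% G and C, and probes with over 25% and up to 30% had medians of -0.52 and -0.90 on these arrays. The part of composition in this difference was not tested. In females Sort1 read 11.49 at 2 mg and 11.59 and 10.84 at 20 mg. Of the sortilin relatives, Sorcs2 was past the fold rule in females at -1.83, with -0.05 on female 20 mg replicate 1 and -3.61 on the dim array, where it was not well above background. Sorcs1 differed by -0.74 in males and -0.88 in females, and Sorcs3 by -1.14 and -0.16. Ntf5, another TrkB ligand, was above background on too few arrays to be tested.

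Markers of other tissues also differed between arrays, with 0 limma calls in every list. Of 5 choroid plexus markers, all detected on the 2 mg arrays, 3 were past 2.5-fold higher on both female 20 mg arrays (0.58% of all tested probes). The list had a median difference of 2.10 and 2.5 there. In males none of them was past the fold rule, and the medians were 0.60 and 0.07. Their summed processed signal, not scaled between arrays, was 12560 on the female 2 mg array and 270800 and 2263 on the female 20 mg arrays. In males it was 68610 at 2 mg and 48330 and 23410 at 20 mg. The median processed signal of an array ran from 5.14 to 162, so a change in these sums is not read as a change in level. Of 10 forebrain markers 3 were higher in males (1.71% of all tested probes) and 2 lower in females (15.3% of all) by the fold rule. Their median difference was 1.83 on male 20 mg replicate 1 and -0.16 on male 20 mg replicate 2. Their summed processed signal, also not scaled, was 16760 at 2 mg and 18030 and 2296 at 20 mg in males. In females it was 22410 at 2 mg and 86100 and 158 at 20 mg. Of the forebrain markers, Fezf2 was at the floor on the male 2 mg array. Hypothalamus markers had a median of -1.68 on female 20 mg replicate 1, where 4 of 6 were past 2.5-fold lower (3.07% of all tested probes). The 6 brainstem markers had medians of -0.32 and -0.34 on the male 20 mg arrays and -0.20 on female 20 mg replicate 1. On male 20 mg replicate 1, 2 of them were past 2.5-fold lower (13% of all tested probes) and 1 was past it higher (6.28% of all). On female 20 mg replicate 1, 2 were also past it lower (3.07% of all) and 1 higher (1.95% of all). Of these markers, Slc6a4 was lower by 1.61 and 2.78 on the male 20 mg arrays, and Hoxa5 by 2.93 on female 20 mg replicate 1. Tph2 was higher by 1.63 and 1.64 on the first 20 mg arrays of males and females, and lower by 1.82 on male 20 mg replicate 2. The part of tissue makeup in the members' differences was not tested, and in pooled tissue fewer cells of a type and less RNA per cell cannot be told apart.

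For each member well above background on all 6 arrays, the transcripts with the most similar profile were sought among the probes of other genes that were also well above background on all 6 arrays, 10004 of them for Ntrk2. Likeness was Pearson's r of the log2 levels over the 6 arrays, a description that the dim array dominates. Ntrk2 was most like Efnb3 (r = 0.997) and H3f3a (0.995), and Ntrk3 was most like Kctd14 (0.996) and Ptges3 (0.992). Ngfr was most like Cnih2 (0.998) and Cox6b2 (0.994), Frs2 most like Glod4 (0.994) and Ube2v2 (0.991), and Ngfrap1 most like Tor1a (0.992) and Dido1 (0.987).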

How the data were processed

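RNA was labelled with cyanine-3 and hybridized to SurePrint G3 mouse arrays. With Feature Extraction 10.7.3.1 the authors computed background-subtracted intensities per spot, and mean brightness and local background intensities were deposited beside them. The log2 values of the authors' deposited table were quantile normalized with a floor in BRB-ArrayTools and served as an alternative. Groups follow sex and dose as labelled, and 0 columns belonged to samples of another study.

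Spots flagged as outliers were left out, processed signals averaged per probe, log2 transformed, quantile normalized across 6 arrays and given a floor of 10. The variation filter (chi-square, p of 0.05 or less, at most 50% missing) kept 15247 of 55681 probes, and the fold rule needs 2.5-fold. limma 3.58.1 (R 4.3.3) fitted 4 groups with a trend and 2 residual degrees of freedom on 37247 probes well above background on at least 2 arrays, with Benjamini-Hochberg adjustment over all of them and a call at 0.05. A bound was set against the lowest level among probes well above background on that array. On the dim array a member probe above that level, at 9.38, was not well above background, so a bound is not strict. An exact permutation of 2 arrays against 4 could not give a two-sided p under 0.0667. In simulated data with a noise SD of 0.2, limma recovered 100% of changes of 4 (log2). With a noise SD of 1.42 it recovered 0% in each sex and 20.5% over both sexes. That SD came from the pairs of 20 mg arrays, which include the dim array, and was applied to every probe and array. The number of arrays and the spread between them limit the precision.

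Every member probe is described, a gene is led by its brightest probe, and list genes are named where past 2.5-fold on both 20 mg arrays of a sex and well above background on all arrays of a dose, as are the other ligands and receptors, apart from 2 that are not reported here. The members, lists and tests were chosen with earlier results of these data known. Alternatives were a 75th percentile shift, the floor set first, normexp with an offset of 50, brightness without correction, the authors' table, each array left out, scan day and slide, filters and other probes of a gene. Columns of probe positions are in mm9, and names were matched to the RefSeq table of GRCm38.p6.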

Additional observations from a re-analysis of the deposited data

How the results depend on the processing

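No paired analysis was possible because each sex has a single 2 mg array with no replicate number in its label, so the groups compared share fewer than 2 numbers. The fold rule called 1 member probe lower in males and 3 in females. In males it called 2 with the floor set first, with the authors' table and without the variation filter, and 0 within the later scan day. In females it called 1 with a 75th percentile shift, 5 with the authors' table and without the variation filter, and 0 within the later scan day or on the slide of the 2 mg arrays. Leaving out each array in turn gave 0 to 2 in males and 0 to 4 in females, the 0 in males without male 20 mg replicate 1 and the 0 in females without the dim array (labelled female 20 mg replicate 2). limma called 0 to 1 members in females when each array was left out. Over the 26 dose differences of members, 12 kept their direction under every alternative run and 14 did not. That of the 5′ probe of the Ntrk3 kinase form in females, -2.91, was 0.0125 within the later scan day, 0.0128 on the slide of the 2 mg arrays, and -5.42 to 0.0132 with each array left out, the latter without the dim array. Over all probes the fold rule called 1998 in males and 10552 in females, against 701 and 2077 with a 75th percentile shift, 812 and 3581 with normexp, 776 and 3104 with brightness alone, 9305 and 2897 within the later scan day, 3636 in females on the slide of the 2 mg arrays, and 1732 to 4366 and 2420 to 13519 with each array left out. limma, with 0 calls, called 3 in females with a 75th percentile shift, 3 with normexp and 1 with brightness alone. Over both sexes it called 23 within the later scan day, and with slide as a block it called 1 for dose. With each array left out limma called 0 to 1 in males, 0 to 96 in females, 0 to 14 over both sexes and 0 to 2 for the interaction. The cause of these shifts was not tested. Signal over background limits the dim array, where 7 of 13 member probes give a bound or a value not well above background.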
